A study of Mus musculus with 3 samples.

Results

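The laminin chain and nidogen genes measured on these arrays were 4 alpha chains (Lama1, Lama2, Lama4 and Lama5), 2 beta chains (Lamb1 and Lamb2), 1 gamma chain (Lamc1) and both nidogens (Nid1 and Nid2). They were 9 of 19938 genes. Each was chosen by name, as the probe set whose annotation listed only that symbol or an older form of it, and each of the 9 had 1 such probe set, so no choice between probe sets had to be made. RNA came from mature renal corpuscles, the filtering units of the kidney, of adult wild-type CD-1 male mice aged 7 to 9 weeks. The 3 samples form 1 group, with no treatment and no other tissue beside it. Each was a pool from approximately 2 kidneys, digested for 15 minutes at 37 °C in Collagenase A (0.5%) and passed through filters of 100, 70 and 40 µm. The corpuscles were not sorted into cell types, so podocytes, endothelial cells, mesangial cells and capsule cells could all contribute to a value. Some markers of tubules, smooth muscle, fibroblasts and immune cells were also detected, as given below, though 58.9% of all genes were. Cells carried over with the corpuscles could contribute too. Fewer cells of a type and less RNA per cell cannot be told apart.

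Laminins are large secreted glycoproteins built from an alpha, a beta and a gamma chain joined in a trimer, often cross-shaped. The trimer is named by the numbers of its chains. Many laminins, but not all, polymerise on cell surfaces through the short arms of the chains. The end of the alpha chain can bind integrins and dystroglycan. Nidogens link the laminin network to the type IV collagen network by binding the gamma chain. In the kidney the mature glomerular basement membrane, shared by podocytes and endothelial cells, is known for the trimer of α5, β2 and γ1, which replaces trimers with α1 and β1 during glomerular development.

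Signals were read against a background set on each array by olfactory and vomeronasal receptors, at 6.90, 6.96 and 6.92 log2 on replicates 1, 2 and 3. It was the 95th percentile of 1212 receptor probe sets. Detection was called by limma, for a gene above background at a Benjamini-Hochberg adjusted p under 0.05. Of the 9 laminin and nidogen genes 7 were detected, where 58.9% of all genes were. The median gene of the 9 lay 1.73 log2 above background, where the median of all genes lay 0.37 above it. Of the 9, 2 exceeded a linear signal of 500 on all 3 arrays, as did 17.2% of all genes, and none exceeded 1000. The study took 500 as very roughly the level that in situ hybridization needs, for raw signals of genes elevated in sorted podocytes. How the signals used here were summarized is not given, so the scales may differ.

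**Figure D1:**
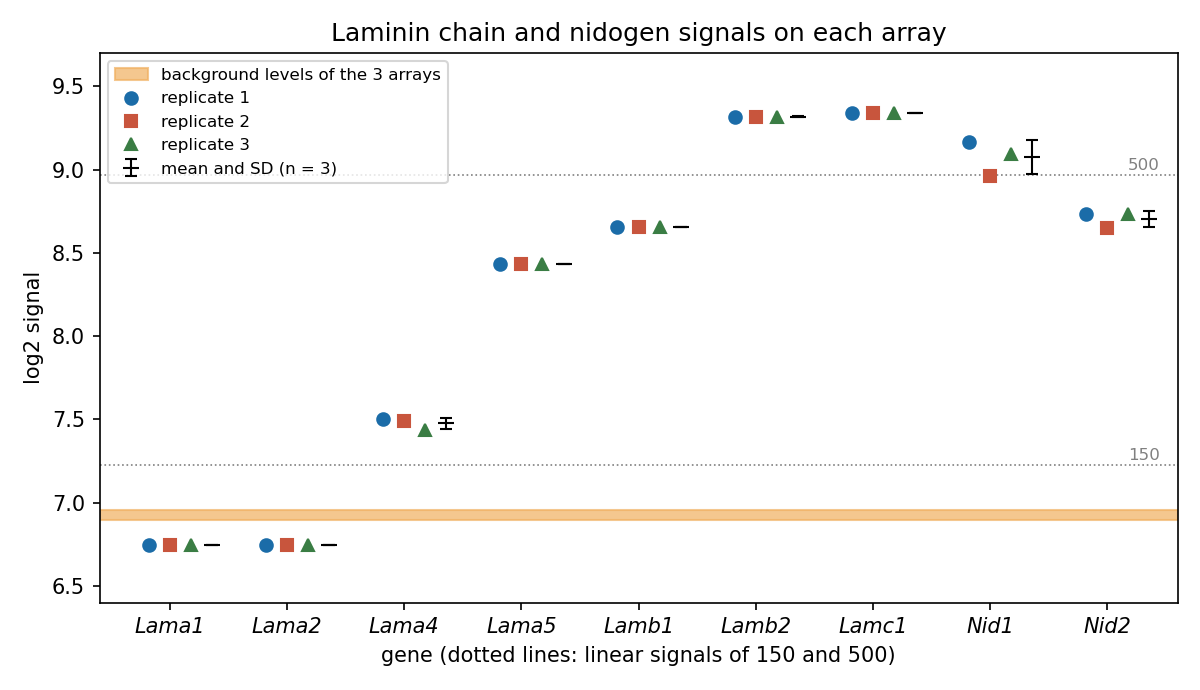
log2 signal (vertical axis) of each laminin chain and nidogen gene (horizontal axis) on the 3 arrays, with the mean and SD of n = 3 beside it; the orange band spans the background levels and dotted lines mark linear signals of 150 and 500. Lama1 and Lama2 lie below background at 6.75 and the other 7 genes lie above a linear signal of 150 on every array.

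The alpha chains were divided between detected and undetected genes. Lama5, the alpha chain of the mature glomerular basement membrane, had 8.43 log2 on all 3 arrays, a linear signal of 346. That is 1.51 above background. Lama4, a chain of vascular endothelial basement membranes, had 7.50, 7.49 and 7.44 on replicates 1, 2 and 3. Its mean of 7.48 ± 0.03 (SD, n = 3) lay 0.55 above background, the smallest margin of the 7 detected genes. When background was raised to the 99th percentile of receptors, Lama4 stood at -0.084 relative to it and was not detected.

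Lama1, the chain of the immature glomerular basement membrane, had 6.75 log2 on all 3 arrays, a linear signal of 107. Lama2, the chain of muscle basement membrane that is also known in mesangial matrix, gave the same 6.75 on all 3 arrays. Both stood at -0.18 relative to background and were not detected. Still, 92.5% of the 1196 receptor genes had lower means. With the median of receptors as background both lay 1.37 above it and were called, as were 18031 of all 19938 genes. The equal values of Lama1 and Lama2 do not measure equal RNA, since 56, 61 and 61 probe sets held exactly that value on replicates 1, 2 and 3. A value of any of the other 7 genes was shared by at most 2 probe sets of an array, itself included.

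Both beta chains were detected. Lamb2, the beta chain of the mature glomerular basement membrane, whose loss causes congenital nephrotic syndrome in humans and in mice, had 9.32 log2 on each array (linear 637, 638 and 638). It lay 2.39 above background. Lamb1, the beta chain that precedes it in development and persists in other basement membranes of the kidney, had 8.65 on all 3 arrays, a linear signal of 403. It lay 1.73 above background. The 2 signals come from probe sets with their own affinities and do not show which RNA was more abundant.

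Lamc1, the gamma chain common to most laminins and the one that nidogens bind, had 9.34 log2 on all 3 arrays. Its linear signal was 647, and it lay 2.41 above background. Lamb2 and Lamc1 were the 2 genes over a linear signal of 500 on every array. The member chains can be combined into 8 textbook trimers that share γ1. In 4 of them, laminin-411, laminin-421, laminin-511 and laminin-521, all 3 chain genes were detected. In the other 4, laminin-111, laminin-121, laminin-211 and laminin-221, the alpha chain was not. Both beta chains and the gamma chain were detected, so this split only restates which alpha chains were called. Laminin-411 and laminin-421 rest on Lama4, which stood at -0.084 against the 99th percentile of receptors and was not detected there. With the median of receptors as background all 9 genes were detected, so no trimer lacked a chain. The trimer counts are of chain RNA over the whole unsorted preparation. Whether 1 cell type held all the chains of a trimer was not measured.

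Both nidogens were detected. Nid1, also called entactin, had 9.17, 8.96 and 9.09 log2 on replicates 1, 2 and 3, and its mean of 9.07 ± 0.10 (SD, n = 3) lay 2.15 above background. Its linear signals were 574, 499 and 546, so replicate 2 alone fell short of 500. Without that replicate 3 of the 9 genes exceeded 500. Nid2, its paralogue, had 8.73, 8.65 and 8.73, and its mean of 8.70 ± 0.05 (SD, n = 3) lay 1.78 above background. Replicate 2 was the lowest array for both nidogens.

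**Figure D2:**
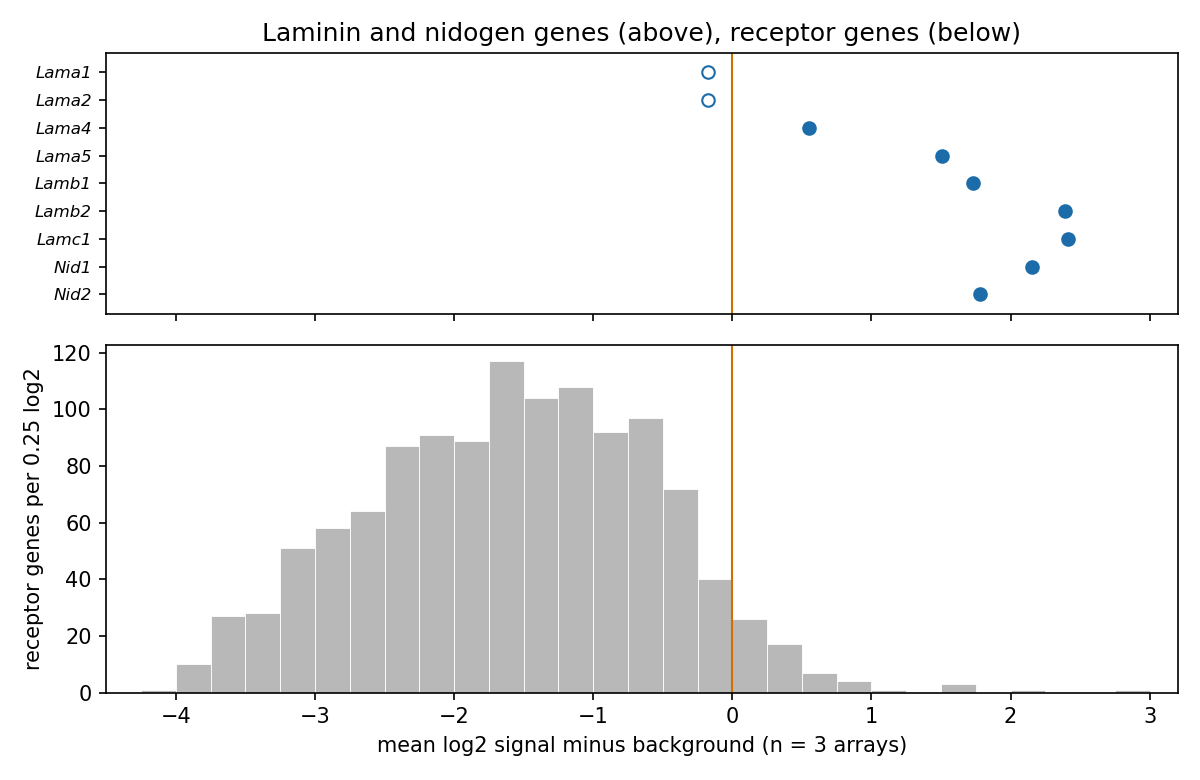
Mean log2 signal minus background over 3 arrays (horizontal axis) of the 9 laminin and nidogen genes (upper panel, filled where detected) and number of receptor genes in steps of 0.25 log2 (lower panel); the orange line is background. Lama1 and Lama2 lie at -0.18, within the upper tail of the receptor genes, and the remaining 7 genes lie between 0.55 and 2.41.

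The edge of the call was narrow. The lowest level among all detected genes was 0.054 log2 above background and the highest among undetected genes was 0.053. Of the 9 genes, those nearest to the edge were Lama1 and Lama2 below it and Lama4 above it. The standard error of the test was taken from a trend on level and not from a gene's own arrays, and it ran from 0.028 to 0.042 for these genes. Many signals are the same on several arrays to the last decimal deposited, so p-values by gene would overstate the certainty and are not printed.

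The 3 preparations were compared gene by gene. Of the 9 genes 5 (Lama1, Lama2, Lama5, Lamb1 and Lamc1) held 1 value on all arrays, 2 (Lamb2 and Nid2) held 2 values and 2 (Lama4 and Nid1) held 3, where 54.2% of all genes held 1 value and 18.3% held 3. An SD of 0 is here a tie in the deposited values and not an absence of error. Nid1 had the largest SD of the 9, 0.10 log2, and 85.2% of detected genes had a lower one. Among detected genes with 3 different values the median SD was 0.094, so the spread of Nid1 was near that of the usual untied gene and that of Lama4, 0.033, was below it. The widest gap between arrays was 0.20 log2, for Nid1 between replicates 1 and 2. For Nid2 the gap between those arrays was 0.085, for Lama4 between replicates 1 and 3 it was 0.062, and for Lamb2 no pair of arrays was more than 0.0024 apart.

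**Figure D3:**
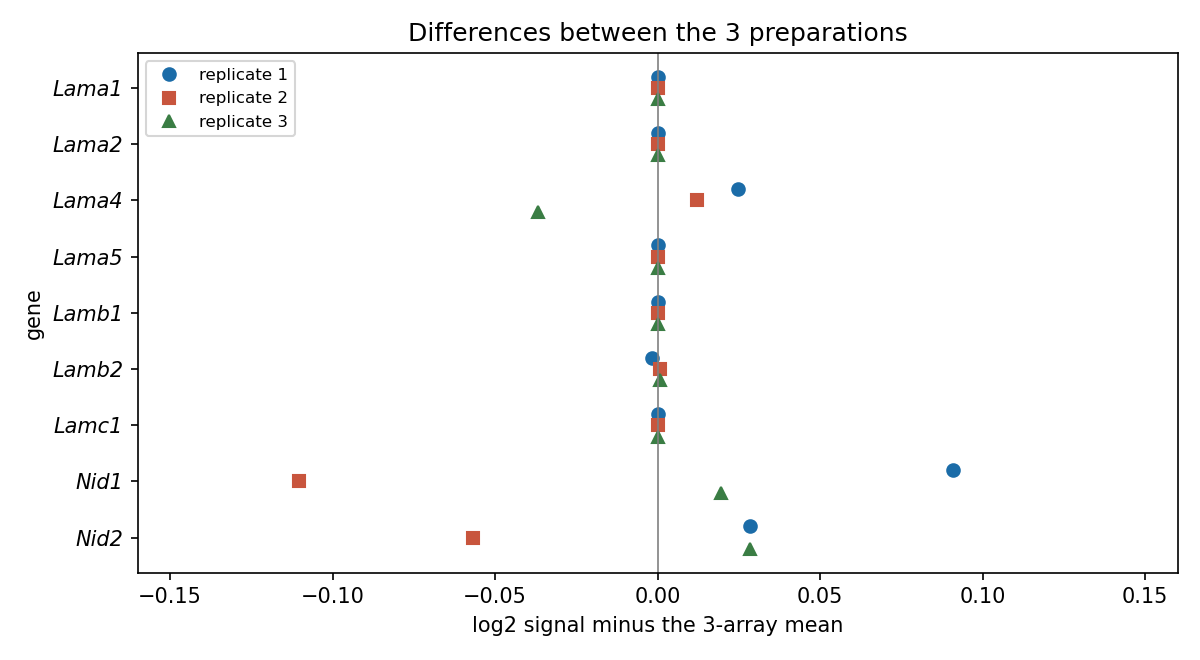
Deviation of the log2 signal on each array from the mean of the 3 arrays (horizontal axis) for each laminin chain and nidogen gene (rows). Nid1 and Nid2 were lowest on replicate 2 and Lama4 on replicate 3, while 5 genes held 1 value on all arrays and lie at 0.

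Cell type markers were set beside these values. All 10 podocyte, 10 endothelial and 10 mesangial markers with a signal were detected, as were 5 of 7 parietal epithelial, 6 of 8 smooth muscle, 7 of 10 proximal tubule, 6 of 10 loop, distal tubule and collecting duct, 5 of 8 fibroblast and 6 of 10 immune markers. Of 5 neuronal and Schwann cell markers with a signal 1 was detected. The lists held 12 podocyte and 7 neuronal and Schwann cell markers, and the rest had no probe set naming that gene alone. The counts of detected markers stand beside the 58.9% of all genes that were detected. On replicate 2, where the nidogens were lowest, the summed linear signal of the endothelial markers was 21852, against 22997 and 22373 on replicates 1 and 3. That of the podocyte markers was 28470, against 30455 and 28074, that of the mesangial markers 22621, against 21771 and 22653, and that of the immune markers 2784, against 2477 and 2121. For the proximal tubule markers it was 4220.1, against 3731 and 3997, for the parietal epithelial markers 9116, against 9082 and 8598, and for the fibroblast markers 1658, against 1615 and 1615. For the smooth muscle markers it was 4151, against 3642 and 4808, for the loop, distal tubule and collecting duct markers 2736, against 2724 and 2891, and for the neuronal and Schwann cell markers 923, against 913 and 919. Most of the parietal epithelial sum came from 1 gene, with a linear mean of 8060. The part of the marker lists in the nidogen values was not tested.

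Of 4 laminin chains chosen outside the 9, the 3 that had a probe set naming that gene alone were also examined. Lama3, an alpha chain of epithelial basement membranes such as that of skin, had 7.92, 7.86 and 7.86 log2, with a mean 0.95 above background, and was detected. Lamc3 had 7.30 on each array, 0.38 above background, and was detected. Lamb3, the beta partner of Lama3 in skin, had 6.67 on all 3 arrays and was not detected.

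Genes of laminin receptors on the cell surface and of proteins bound to them were next examined. Of 13 chosen, 12 had a probe set naming that gene alone. Of these 12, 11 were detected, where 58.9% of all genes were, with a median 2.63 log2 above background. A linear signal of 500 was exceeded by 8 of them, where 17.2% of all genes exceeded it. Itga3, the integrin alpha chain that podocytes use to hold laminin, had 9.82, 9.82 and 10.03 log2, and its partner Itgb1 had 12.39, 12.39 and 12.41. Itga6, another laminin-binding integrin alpha chain, had 9.69 on all arrays. Cd151, a tetraspanin that binds these integrins, had 9.63, 9.90 and 9.90, lowest on replicate 1. Dag1, which encodes dystroglycan, had 9.87 on all arrays, and Utrn, the utrophin that ties dystroglycan to actin, had 9.94, 9.96 and 9.96. Bcam, the Lutheran glycoprotein that binds α5, had 9.18 on all arrays. Itga7 and Itgb4, laminin-binding integrin chains known from muscle and from skin, were detected with smaller margins, 0.39 and 0.42 above background. Sgce and Sgcb, sarcoglycans of the dystroglycan complex, lay 2.50 and 1.83 above it. Sgca, the sarcoglycan of striated muscle, stood at -0.14 relative to background and was the undetected gene.

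Dystroglycan binds laminin through a sugar chain. Of 14 genes chosen whose products build that chain or supply its sugars, only 8 had a probe set naming that gene alone. The rest were not measured here. Of the 8, 7 were detected, where 58.9% of all genes were. The median of the 8 lay 1.06 log2 above background. Dpm1, which makes dolichol phosphate mannose, was 3.63 above background. B4gat1, a glucuronyltransferase that primes the laminin-binding repeat, was 3.19 above it, and B3galnt2, which acts earlier in the chain, 1.75 above it. Gmppb, which makes GDP-mannose, stood at -0.74 relative to background and was not detected.

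Of 15 matrix proteins that bind laminin or nidogen or lie in the same sheet 10 (66.7%) were detected, near the 58.9% of all genes. Their median lay 1.09 log2 above background. Sparc, a collagen-binding glycoprotein, lay 6.46 above it, Npnt, an integrin α8 ligand, 3.99 and Tinagl1, a secreted matrix protein, 2.44. Agrn and Hspg2, the heparan sulfate proteoglycans agrin and perlecan, were named after their values were seen. Agrin binds the laminin coiled coil and perlecan binds nidogen. Agrn had 8.58, 8.64 and 8.58 log2 and Hspg2 8.02 on all arrays, 1.68 and 1.09 above background. Tinag, a tubular basement membrane protein, and Egflam stood at -1.04 and -0.80 relative to background and were not detected. Of the 6 type IV collagen chains, the network that nidogens join to laminin, 5 were detected, where 58.9% of all genes were. Their median lay 1.32 above background. Col4a3 and Col4a4, chains of the mature glomerular membrane, lay 2.34 and 1.79 above it, their partner Col4a5 0.90, and Col4a1 and Col4a2 1.50 and 1.15. Col4a6 stood at -0.039 and was not detected.

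**Figure D4:**
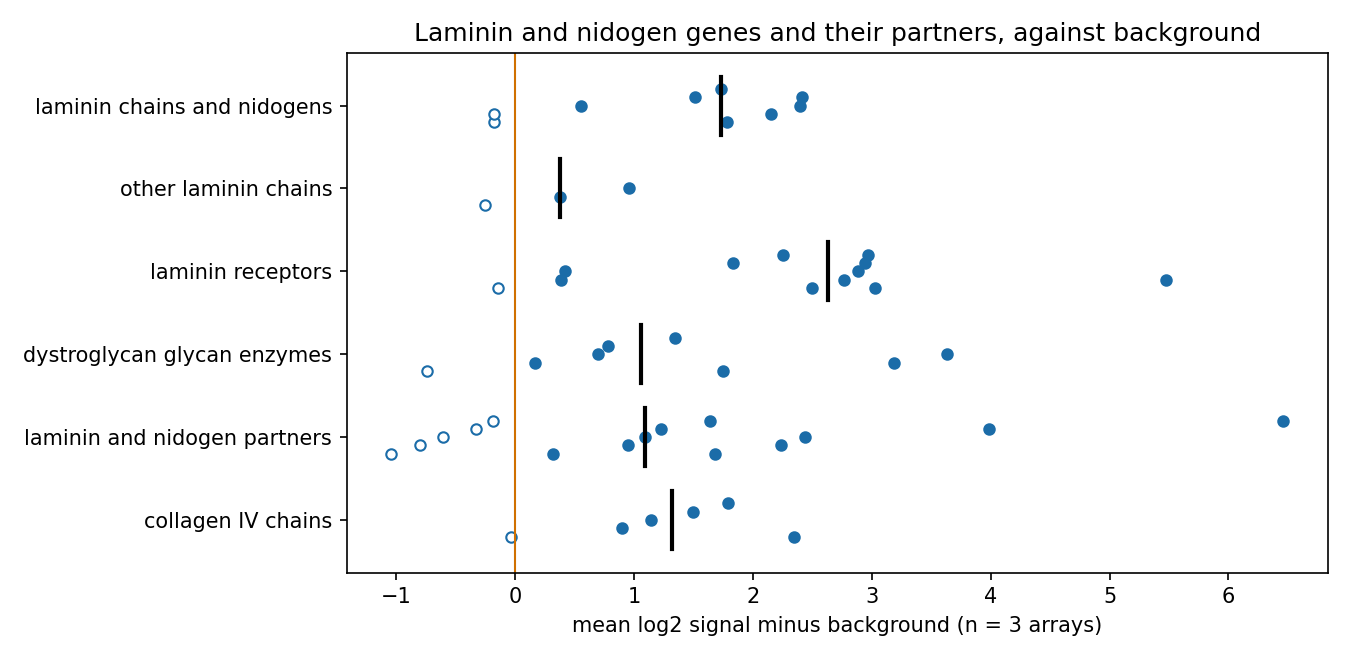
Mean log2 signal minus background over 3 arrays (horizontal axis) of each gene in 6 lists (rows, points shifted vertically for legibility only); points are filled where the gene was detected and open otherwise, a black bar marks each list's median and the orange line is background. The list medians run from 0.38 for the other laminin chains to 2.63 for the laminin receptors, with 1.73 for the 9 laminin and nidogen genes.

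Promoter sequence was at hand for 5 of the 9 genes in RefSeq (GRCm38.p6). The 250 bases before the listed start are shown for an alpha chain that was detected and one that was not, Lama5 (chr2:180225860-180226109, minus strand) and Lama2 (chr10:27616943-27617192, minus strand), and for the beta chains Lamb2 (chr9:108479612-108479861, plus strand) and Lamb1 (chr12:31265043-31265292, plus strand). Capitals mark each GC box, the letters GGGCGG or its reverse complement CCGCCC.
Lama5: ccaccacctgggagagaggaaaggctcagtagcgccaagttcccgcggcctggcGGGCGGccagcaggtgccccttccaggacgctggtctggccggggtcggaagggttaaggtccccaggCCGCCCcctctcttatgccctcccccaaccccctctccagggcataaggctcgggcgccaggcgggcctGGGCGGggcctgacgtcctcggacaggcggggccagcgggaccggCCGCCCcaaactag
Lama2: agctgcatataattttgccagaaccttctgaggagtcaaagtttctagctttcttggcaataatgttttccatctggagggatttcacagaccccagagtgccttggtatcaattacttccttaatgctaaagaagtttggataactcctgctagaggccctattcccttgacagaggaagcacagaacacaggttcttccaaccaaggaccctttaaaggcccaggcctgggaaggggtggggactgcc
Lamb2: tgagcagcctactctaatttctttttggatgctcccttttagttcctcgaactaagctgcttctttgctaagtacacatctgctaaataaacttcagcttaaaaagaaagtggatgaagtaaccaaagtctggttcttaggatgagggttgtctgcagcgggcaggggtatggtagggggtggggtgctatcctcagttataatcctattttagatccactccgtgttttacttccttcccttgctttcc
Lamb1: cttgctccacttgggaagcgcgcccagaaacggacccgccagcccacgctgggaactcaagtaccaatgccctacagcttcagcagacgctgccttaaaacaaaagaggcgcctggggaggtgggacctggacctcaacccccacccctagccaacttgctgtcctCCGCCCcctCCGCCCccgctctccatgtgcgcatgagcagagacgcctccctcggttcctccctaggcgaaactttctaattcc
GC boxes were 4 in the Lama5 window, 2 in the Lamb1 window and 1 in the Nid1 window, and there was none in the windows of Lamb2 and Lama2. Among all 32851 promoters listed, 32.7% held at least 1 in the same 250 bases. The detected genes Lama5, Nid1 and Lamb1 had 19, 16 and 14 CpG dinucleotides and a GC content of 72.4%, 64.4% and 62.0%. Lamb2, also detected, had 3 CpG and 43.6%, and the undetected Lama2 had 0 CpG and 47.2%, where the medians of all promoters were 6 and 52.4%. Both strands were also searched for CCAAT, which was found once each in the windows of Lamb1 and Nid1 and is in 33.8% of all promoters. TATAAA was found in none of the 5 windows and is in 12.4% of all promoters. No search letters overlapped each other in these windows. A match describes the letters only.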

How the data were processed

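Total RNA of 3 renal corpuscle samples was amplified with a NuGEN Pico kit in 1 round, labelled with biotin and hybridised to an Affymetrix mouse gene array. The authors deposited log2 signals for 35557 probe sets; Affymetrix Expression Console is named in the submitters' processing notes, without a version, and the summary method and normalization are not given in the sources used here. How the many equal values arose was not stated. Array medians were 7.11, 7.11 and 7.09, no further normalization was applied, and the number of arrays limits the precision.

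Probe sets with 1 symbol in the platform annotation (21789) named 19938 genes, each by its probe set of highest mean. Those with several symbols (1621) or unnamed here (12147) were left out. log2 signals minus each array's background (95th percentile of receptors) were fitted over all genes in R 4.3.3 with limma 3.58.1 (intercept, eBayes with trend, one-sided, Benjamini-Hochberg). The step was tested on simulated data. Those data held no tied values, and their genes without signal all lay well below background. False calls among tied values or near the edge were therefore not tested. Alternatives changed the background, normalization, variance model, probe set rule, filter and replicates. The laminin and nidogen genes and all lists were chosen with earlier results of these data known. The genes named are all 9, the 3 other laminin chains, all receptors and type IV collagens, and of the remaining lists the 3 detected genes of highest mean and up to 2 undetected genes of lowest mean, with no gene named from the marker lists. Agrn and Hspg2 are exceptions to this rule, named after their values were seen. Names and promoters came from RefSeq tables. Whether the pools were made from separate litters is not in the labels, and part of their spread may be technical.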

Additional observations from a re-analysis of the deposited data

How the results depend on the processing

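No paired analysis was possible because there is only 1 group. Of 97 levels of the 9 genes under 11 alternatives, 94 kept their direction and their side of the threshold. The exceptions were Lama4 against the 99th percentile of receptors, at -0.084, and Lama1 and Lama2 with the median of receptors, each at 1.37. The count of detected laminin and nidogen genes was 6 with the 99th percentile, 9 with the median and 7 under the other 9 alternatives, each single left-out replicate included. Over all genes 18031 were detected with the median of receptors, which sets a lower level, and 8313 with the 99th percentile, which sets a higher one, against 11752 as reported, and leaving out 1 replicate gave 11424 to 11869. Quantile normalization between arrays removed the ties: Lama1, Lama2, Lama5, Lamb1, Lamc1 and Lamb2 then had SDs from 0.012 to 0.022, and their detection calls did not change. Each of the 9 genes has 1 probe set, so the probe set rule could not move its level. The filter dropped Lama1 and Lama2 and left the other levels as they were, and the variance model moved no level. The counts of levels and of alternatives above include these settings, so they overstate how far stability was tested. Values of this kind have no depth, and signals below background carry only a bound.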

Other observations

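Equal values were widespread in the deposited table. On replicate 1, 27.9% of probe sets held a value shared by 10 or more probe sets of that array. Of the 9 laminin and nidogen genes 2, Lama1 and Lama2, held such a value on every array. Between arrays, 64.2% of genes had the same value on replicates 1 and 2, 61.9% on replicates 1 and 3 and 64.1% on replicates 2 and 3, and 5, 6 and 6 of the 9 genes did.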
